A study of Mus musculus with 15 samples.

Results

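The genes described here are 10 components of bone morphogenetic protein (BMP) signalling in mouse embryonic fibroblasts: the ligands Bmp2, Bmp4 and Bmp8b, the secreted antagonist Grem1, the Id genes Id1, Id2, Id3 and Id4, and the inhibitory Smads Smad6 and Smad7. They were chosen by name, as all probes that the array design assigns to these genes. That gave 13 probes, printed on 31 spots, of 41174 distinct probes on the array. Bmp2 and Bmp4 are each printed on 10 spots with 1 probe, and Id1, Id2 and Id4 each have 2 probes. All 13 probes were among the 27700 tested, which had to be well above background in the sample channel on 3 or more arrays of some genotype. Bmp8b met this through wild type, where it was well above background on 3 of 4 arrays.

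The fibroblasts came from C57B6 embryos at 13.5 days post coitum, were at passage 3 and at high confluence, and had been without serum for 24 h, in all groups alike. There were 4 arrays of wild type (labelled WT), 4 of cells lacking p27 (p27_KO1), 4 of cells lacking stathmin (stathmin_KO2) and 3 of cells lacking both (p27_stathmin_DKO). p27, the product of Cdkn1b, inhibits cyclin-dependent kinases, and stathmin, the product of Stmn1, destabilises microtubules. The labels name the alleles only as knock-outs and name no agent other than the lack of serum; within a genotype they describe the cultures as biological replicates. Each array set a sample in Cy5 against a pool of fibroblast RNA in Cy3 with no dye swap, so each level below is a log2 ratio of sample over pool: 0 is the level of the pool, and 1 is a doubling.

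BMP ligands are secreted dimers that bind type I and type II serine/threonine kinase receptors. The receptors phosphorylate Smad1, Smad5 and Smad9, which enter the nucleus with Smad4 and bind regulatory DNA. The Id genes are classical direct targets of this pathway; they encode helix-loop-helix proteins without a DNA-binding region, which hold E proteins away from DNA and are linked to proliferation and delayed differentiation. Smad6 and Smad7 are also induced and act back on the receptors and Smads, while Gremlin 1 binds BMP2 and BMP4 outside the cell. In fibroblasts, serum is a further strong inducer of Id genes.

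RefSeq promoter windows run from 250 bases before to 30 bases after the start of transcription on the GRCm38.p6 assembly. They are reported here for 7 of the 10 genes: Bmp4, Bmp8b, Id2, Id3, Id4, Smad6 and Grem1. The remaining genes are left out of the motif counts for these 7. The windows of Id2, Id3 and Smad6 are shown because these 3 genes had their highest levels on the same arrays, as described further on. These windows lie at chr12:25096063-25096342 on the minus strand, chr4:136143572-136143851 on the plus strand and chr9:64022030-64022309 on the minus strand. Capitals mark GTCTAGAC, the palindrome that Smad proteins bind, and the short GC-rich elements GGCGCC and GGAGCC, each searched on both strands (GGAGCC reads GGCTCC on the other strand).
Id2: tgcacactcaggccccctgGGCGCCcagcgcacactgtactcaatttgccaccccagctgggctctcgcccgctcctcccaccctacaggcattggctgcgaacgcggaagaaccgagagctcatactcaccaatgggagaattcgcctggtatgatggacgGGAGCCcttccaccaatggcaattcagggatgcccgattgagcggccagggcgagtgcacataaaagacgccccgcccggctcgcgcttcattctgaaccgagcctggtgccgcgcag
Id3: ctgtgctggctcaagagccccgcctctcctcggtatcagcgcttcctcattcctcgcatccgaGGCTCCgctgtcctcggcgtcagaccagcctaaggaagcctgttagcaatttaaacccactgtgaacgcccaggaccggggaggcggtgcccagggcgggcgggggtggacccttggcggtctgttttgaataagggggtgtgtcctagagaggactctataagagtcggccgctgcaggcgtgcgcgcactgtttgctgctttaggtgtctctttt
Smad6: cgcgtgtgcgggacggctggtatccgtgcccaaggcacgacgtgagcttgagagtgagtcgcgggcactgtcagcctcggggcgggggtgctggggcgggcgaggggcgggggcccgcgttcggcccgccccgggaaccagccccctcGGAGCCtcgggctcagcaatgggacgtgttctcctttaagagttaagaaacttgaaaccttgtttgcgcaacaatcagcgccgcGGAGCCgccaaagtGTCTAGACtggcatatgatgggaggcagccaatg

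GTCTAGAC was found in 1 of the 7 windows, that of Smad6, where its first base lies 4 bases before the start; 0.192% of 32851 windows of the same length hold it. GGCGCC was found in the windows of Id2, Id4 and Grem1 and is held by 10.9% of all windows. GGAGCC was found in 6 of the 7, all but that of Grem1, and is held by 28.8% of all windows. The 7 windows are 60.7 to 74.3% G and C. The shares over all windows were not matched for this, so no enrichment is read from them. Known BMP-responsive enhancers of Id genes can lie farther away than these windows reach. A match describes letters only.

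Several facts of the arrays bear on the results. Of the 2 tested Stmn1 probes, one read -2.64 to -2.98 on the 7 arrays that lack stathmin and 0.41 to 1.49 on the other 8; the other Stmn1 probe did not follow the genotype. The 1 tested Cdkn1b probe read -0.15, -0.18, 0.05 and -1.10 in p27 knock-out and -0.22 to 0.93 in wild type, so it did not separate the labelled genotypes, and where it lies relative to the deletion is not given in the sources used here. A second Cdkn1b probe, too dim to be tested, read -0.20 to -0.079 on the 7 arrays that lack p27, 0.22 to 0.36 in wild type and, on the 4 arrays lacking stathmin alone, -0.13 to 0.53, so it did not separate them fully either. Wild type 3 and 4 had log2 ratios correlated across probes at 0.82, the highest of any pair of arrays, ahead of 0.63 for the next pair; whether they share an embryo or culture is not given in the sources used here, and if they do, wild type has 3 independent cultures and the p-values that count 4 are too small. p27 knock-out 2 correlated with wild type 3, 4 and 1 at -0.47, -0.38 and -0.31; the labels state the dyes, so the direction of the ratio was kept. All 12 fibroblast markers were well above background on every array. Between 12 and 14 of 14 macrophage markers were too, and their summed signal ran from 45726 to 989365 units. In RNA from a whole culture, fewer cells of a type and less RNA per cell cannot be told apart. The place of an array on its slide was fixed by genotype on all 4 slides, and the effects of place and genotype cannot be told apart.

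The main pattern in these genes was a wide spread between arrays of the same genotype. Id1 ran from -2.63 to 1.76, a 21.0-fold range, and its standard deviation (SD) within genotypes, 1.37, was larger than that of 98.8% of tested probes. Smad7 spanned 15.2-fold, Id4 10.4-fold, Smad6 9.54-fold, Id2 8.78-fold and Id3 6.04-fold, against a median of 2.20-fold over all tested probes. Bmp4 spanned 6.80-fold, Grem1 4.63-fold, Bmp2 2.98-fold and Bmp8b 2.46-fold. The share of variance between genotypes was 1.81% for Id4 and 11.8 to 37.5% for the brightest probes of the members other than Id4 and Bmp8b, where the median over tested probes was 17.0%. For Bmp8b it was 68.8%, a description only, since this probe entered the tested set through the genotype in which it is high.

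**Figure D1:**
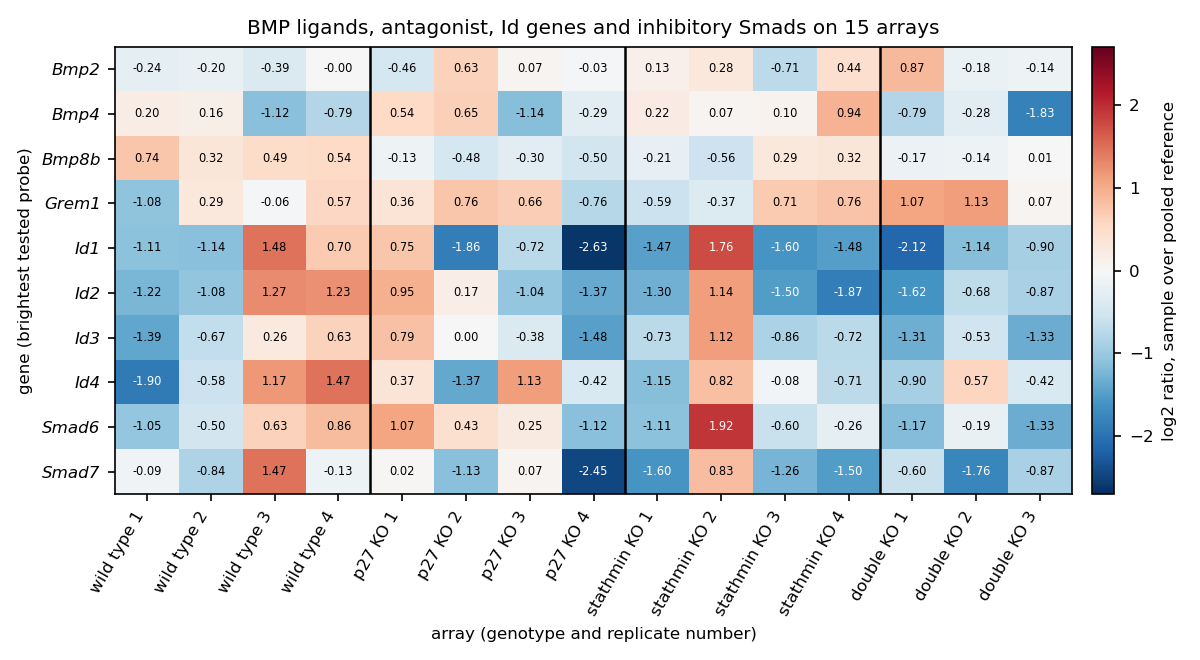
Log2 ratio of sample over pooled reference for the brightest tested probe of each of the 10 genes (rows) on the 15 arrays (columns, by genotype and replicate number; vertical lines separate genotypes), with red above and blue below the reference. Id1, Id2, Id3 and Smad6 are red on stathmin knock-out 2, p27 knock-out 1 and wild type 3 and 4, and Bmp8b is red on all 4 wild type arrays.

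Bmp8b, a ligand best known from germ cell development and brown fat, lies on chromosome 4 at 123104308 to 123126094 (GRCm38), at -11.36 Mb from Stmn1 on that chromosome. Its log2 ratio was 0.74, 0.32, 0.49 and 0.54 in wild type, -0.13, -0.48, -0.30 and -0.50 in p27 knock-out, -0.21, -0.56, 0.29 and 0.32 in stathmin knock-out, and -0.17, -0.14 and 0.01 in double knock-out. All 4 wild type arrays stood above all 11 arrays of the 3 knock-out groups. The closest were stathmin knock-out 3 and 4, just under wild type 2.

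Wild type averaged 0.52 ± 0.17 (SD, n = 4) and p27 knock-out -0.35 ± 0.17 (n = 4). The mean was -0.04 ± 0.42 without stathmin (n = 4) and -0.10 ± 0.10 without both (n = 3). Against wild type, the log2 difference was -0.87 in p27 knock-out (SE 0.18, 95% interval -1.27 to -0.48), below wild type on all 4 slides, from -0.79 to -1.04. It was -0.57 in stathmin knock-out (SE 0.18, interval -0.96 to -0.17), also below on all 4 slides, at -0.95 and -0.89 on slides 1 and 2 and -0.20 and -0.22 on slides 3 and 4. In double knock-out it was -0.62 (SE 0.20, interval -1.05 to -0.19), below on the 3 slides that hold one.

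None of these differences passed the threshold of an adjusted p under 0.05 in the limma fit: Benjamini-Hochberg over all tested probes gave 0.797, 0.916 and 1. Of all probes, 1.31% lay with no overlap below wild type in p27 knock-out, 1.67% in stathmin knock-out and 3.4% in double knock-out. The dimmer Id2 probe had values dropped as outliers and could not be assessed in p27 or double knock-out. Bmp8b was 1 of 13 member probes to lie so in each comparison. The 3 comparisons share the 4 wild type arrays, and the probe was tested because of its level there, so these counts support nothing by themselves.

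The Y-linked gene Ddx3y read -7.22 to -7.48 on 4 arrays (p27 knock-out 2, stathmin knock-out 1 and 2, double knock-out 1) and -0.27 to 0.83 on the rest, wild type included. In stathmin knock-out the arrays low in Ddx3y were the ones low in Bmp8b (-0.21 and -0.56, against 0.29 and 0.32). Without those 4 arrays, a setting chosen after seeing the data, the Bmp8b difference from wild type was -0.22 in stathmin knock-out (SE 0.16, adjusted p = 0.654 in limma), -0.83 in p27 knock-out (SE 0.14, adjusted p = 0.998) and -0.58 in double knock-out (SE 0.16, adjusted p = 0.892). The interaction was then 0.47 (SE 0.23, adjusted p = 0.938). The tested probe of Xist, an X-linked gene, read 0.63 to 1.98 on those 4 arrays. It read 0.20 on wild type 1 and -2.58 to -1.76 on the other arrays. Wild type 1, where Ddx3y read -0.27, stayed in this setting although it was unlike the other wild type arrays in Xist. Its Bmp8b value, 0.74, was the highest of all arrays.

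Between the knock-out groups, Bmp8b differed by 0.25 (double minus p27, SE 0.20) and by -0.05 (double minus stathmin, SE 0.20), with adjusted p = 1 in both. The interaction, which asks whether losing both genes differs from the sum of the single losses, was 0.82 (SE 0.27, interval 0.23 to 1.41, adjusted p = 0.682).

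Bmp8b was dim. Its spot signal in the sample channel was 188 to 212 units in wild type, 91.1 to 132 in p27 knock-out, 129 to 217 in stathmin knock-out and 114 to 150 in double knock-out, over a local background of 40 to 54 units. It was well above background on 3, 1, 2 and 0 arrays of these groups in turn. No double knock-out array had it well above background, so its level there is uncertain. Values below the dimmest probe called well above background on their array were raised to that probe's level. In the normalised sample channel wild type was then 1.60-fold higher than double knock-out, where the measured means gave 1.70-fold. Only 1 p27 knock-out array had it well above background, and the raised values gave 1.66-fold for that group, beside 1.96-fold from the measured means. Neither is a lower limit: wild type 4 read 201 units without being well above background, and p27 knock-out 3 read 117 and was. The differences between knock-out groups and the interaction rest largely on such dim values. The size of the difference rests on how background is treated: the difference in p27 knock-out was -1.38 with no offset after background correction and -2.02 by the scanner software's own ratio, with adjusted p = 0.756 and 0.763 in limma. With array weights in the fit the stathmin difference was -0.36 (adjusted p = 0.202).

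**Figure D2:**
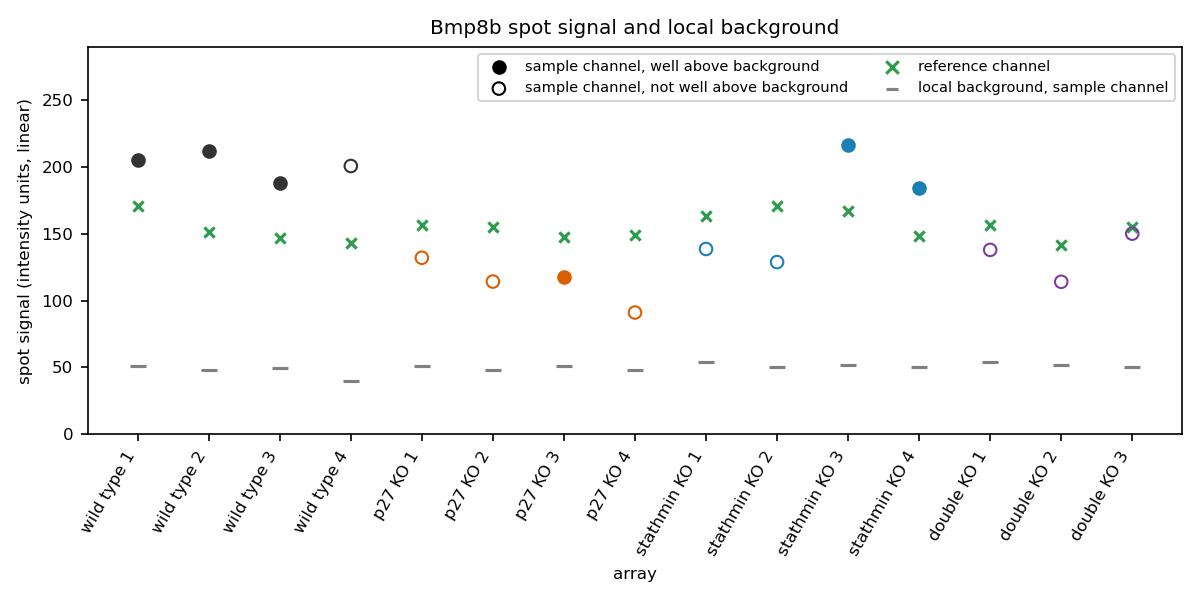
Spot signal of the Bmp8b probe in linear intensity units on each of the 15 arrays: circles give the sample channel (filled where well above background, open where not; colour marks genotype), crosses the pooled reference and grey dashes the local background. The sample channel exceeds the reference on all 4 wild type arrays and on stathmin knock-out 3 and 4.

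Bmp4, the ligand that drives mesoderm and much of mesenchymal BMP signalling, lies on chromosome 14 at 46383525 to 46390669. Its level was 0.20, 0.16, -1.12 and -0.79 in wild type, 0.54, 0.65, -1.14 and -0.29 in p27 knock-out, 0.22, 0.07, 0.10 and 0.94 in stathmin knock-out, and -0.79, -0.28 and -1.83 in double knock-out. All 4 stathmin knock-out arrays were above the reference and all 3 double knock-out arrays below it, so these groups did not overlap, while wild type and p27 knock-out spanned both.

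The log2 difference of double against stathmin knock-out was -1.30 (SE 0.48, 95% interval -2.34 to -0.26), below on each of the 3 shared slides, at -1.01, -0.38 and -2.77. Its adjusted p was 1 in limma; 2.64% of tested probes lay below with no overlap in that comparison. The interaction was -1.62 (SE 0.66, interval -3.04 to -0.21, adjusted p = 0.682): Bmp4 read 0.33 higher in p27 knock-out than in wild type and 0.72 higher in stathmin knock-out, and the difference in double knock-out was -0.58, none of them past the threshold. Macrophage markers had a summed signal of 111494 to 195858 units in stathmin knock-out and 56322 to 887804 in double knock-out; their part in the Bmp4 difference was not tested. The signal was 8583 to 64499 units, and the 10 spots of the probe on an array had a median SD of 0.23 in log2 signal.

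Bmp2, an osteogenic ligand on chromosome 2 (133552159 to 133562896), read -0.24, -0.20, -0.39 and -0.0030 in wild type, -0.46, 0.63, 0.07 and -0.03 in p27 knock-out, 0.13, 0.28, -0.71 and 0.44 in stathmin knock-out, and 0.87, -0.18 and -0.14 in double knock-out. The genotypes overlapped, and the highest array was double knock-out 1. It was well above background on 11 of 15 arrays, with signals of 114 to 367 units, and its differences from wild type (0.26, 0.25 and 0.39) had 95% intervals that reach from -0.39 to 1.08 between them.

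Grem1, the antagonist, lies on the same chromosome at 113748675 to 113758648. Its level was -1.08, 0.29, -0.06 and 0.57 in wild type, 0.36, 0.76, 0.66 and -0.76 in p27 knock-out, -0.59, -0.37, 0.71 and 0.76 in stathmin knock-out, and 1.07, 1.13 and 0.07 in double knock-out. The 2 highest of the 15 values were double knock-out arrays, but double knock-out 3 lay within the range of every other genotype. The mean was 0.76 ± 0.59 in double knock-out (SD, n = 3) and -0.07 ± 0.72 in wild type (n = 4).

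Id1 lies on chromosome 2 at 152736251 to 152737410. Its brighter probe read -1.11, -1.14, 1.48 and 0.70 in wild type, 0.75, -1.86, -0.72 and -2.63 in p27 knock-out, -1.47, 1.76, -1.60 and -1.48 in stathmin knock-out, and -2.12, -1.14 and -0.90 in double knock-out. The arrays fell into 2 sets with a gap from -0.72 to 0.70: 4 arrays from 3 genotypes were above the reference (wild type 3 and 4, p27 knock-out 1, stathmin knock-out 2) and 11 below. In linear units the sample channel read 110377 to 164363 on those 4 and 16182 to 45340 on the other 11, so the sets were also apart before any ratio was taken.

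The second Id1 probe followed the first at r = 0.99 over the 15 arrays. The reference channel of Id1, which carries the same pool on every array, was lowest on wild type 3 and stathmin knock-out 2 (22982 and 25711 units against 36392 to 55149 on the rest); its SD was 0.33 in log2 units, against 1.14 for the sample channel. On those arrays the ratio therefore exceeded the sample channel's own difference.

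Id2, on chromosome 12 at 25093799 to 25096092, read -1.22, -1.08, 1.27 and 1.23 in wild type, 0.95, 0.17, -1.04 and -1.37 in p27 knock-out, -1.30, 1.14, -1.50 and -1.87 in stathmin knock-out, and -1.62, -0.68 and -0.87 in double knock-out. The 4 arrays that were high in Id1 were again the 4 highest. The other Id2 probe was marked as an outlier spot on 4 arrays (p27 knock-out 1, 2 and 4, double knock-out 1); the fit dropped those values, and the probes followed each other at r = 0.96 on the other 11.

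Id3 lies on chromosome 4 at 136143822 to 136145392, 1.68 Mb from Stmn1. It read -1.39, -0.67, 0.26 and 0.63 in wild type, 0.79, 0.0043, -0.38 and -1.48 in p27 knock-out, -0.73, 1.12, -0.86 and -0.72 in stathmin knock-out, and -1.31, -0.53 and -1.33 in double knock-out. Its 4 highest arrays were the same 4, and it was below the reference on all 3 double knock-out arrays.

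By genotype, Id3 averaged -0.30 ± 0.91 in wild type (SD, n = 4) and -0.27 ± 0.94 in p27 knock-out (n = 4). Cells without stathmin averaged -0.30 ± 0.95 (n = 4) and those without both -1.06 ± 0.46 (n = 3). The log2 difference from wild type was 0.03 in p27 knock-out (SE 0.56) and -0.0018 in stathmin knock-out (SE 0.56), with adjusted p = 0.995 and 0.999 in limma. Both were far smaller than their errors, and their signs turned with other settings. In double knock-out it was -0.76 against wild type, -0.79 against cells without p27 and -0.76 against cells without stathmin, each with SE 0.60 and adjusted p = 1, and the interaction was -0.79 (SE 0.82, adjusted p = 0.83). The 95% interval of double knock-out against wild type ran from -2.06 to 0.54 and so holds differences of either sign. Single arrays moved these values by over 1.5 times: to -0.45 against wild type without wild type 4, and against p27 knock-out to -0.44 without p27 knock-out 1 and -1.20 without p27 knock-out 4. Without stathmin knock-out 2 the difference from stathmin knock-out was -0.29 and the interaction -0.32; the interaction ranged from -1.19 to -0.32 over the arrays left out.

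Id4, on chromosome 13 at 48261116 to 48266028, read -1.90, -0.58, 1.17 and 1.47 in wild type, 0.37, -1.37, 1.13 and -0.42 in p27 knock-out, -1.15, 0.82, -0.08 and -0.71 in stathmin knock-out, and -0.90, 0.57 and -0.42 in double knock-out. Of the 4 arrays high in Id1, 3 were among its 4 highest; p27 knock-out 3 took the place of p27 knock-out 1. Its probes followed each other at r = 0.96.

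Smad6, which blocks BMP receptor signalling in particular, lies on chromosome 9 at 63953076 to 64022085. It read -1.05, -0.50, 0.63 and 0.86 in wild type, 1.07, 0.43, 0.25 and -1.12 in p27 knock-out, -1.11, 1.92, -0.60 and -0.26 in stathmin knock-out, and -1.17, -0.19 and -1.33 in double knock-out. Again the 4 arrays high in Id1 were the 4 highest, and all 3 double knock-out arrays were below the reference.

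Smad7, the inhibitor shared by the BMP and TGF-beta branches, read -0.09, -0.84, 1.47 and -0.13 in wild type, 0.02, -1.13, 0.07 and -2.45 in p27 knock-out, -1.60, 0.83, -1.26 and -1.50 in stathmin knock-out, and -0.60, -1.76 and -0.87 in double knock-out. Its highest arrays were wild type 3 and stathmin knock-out 2, and wild type 4 was lower, at -0.13, although high in the Id genes.

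**Figure D3:**
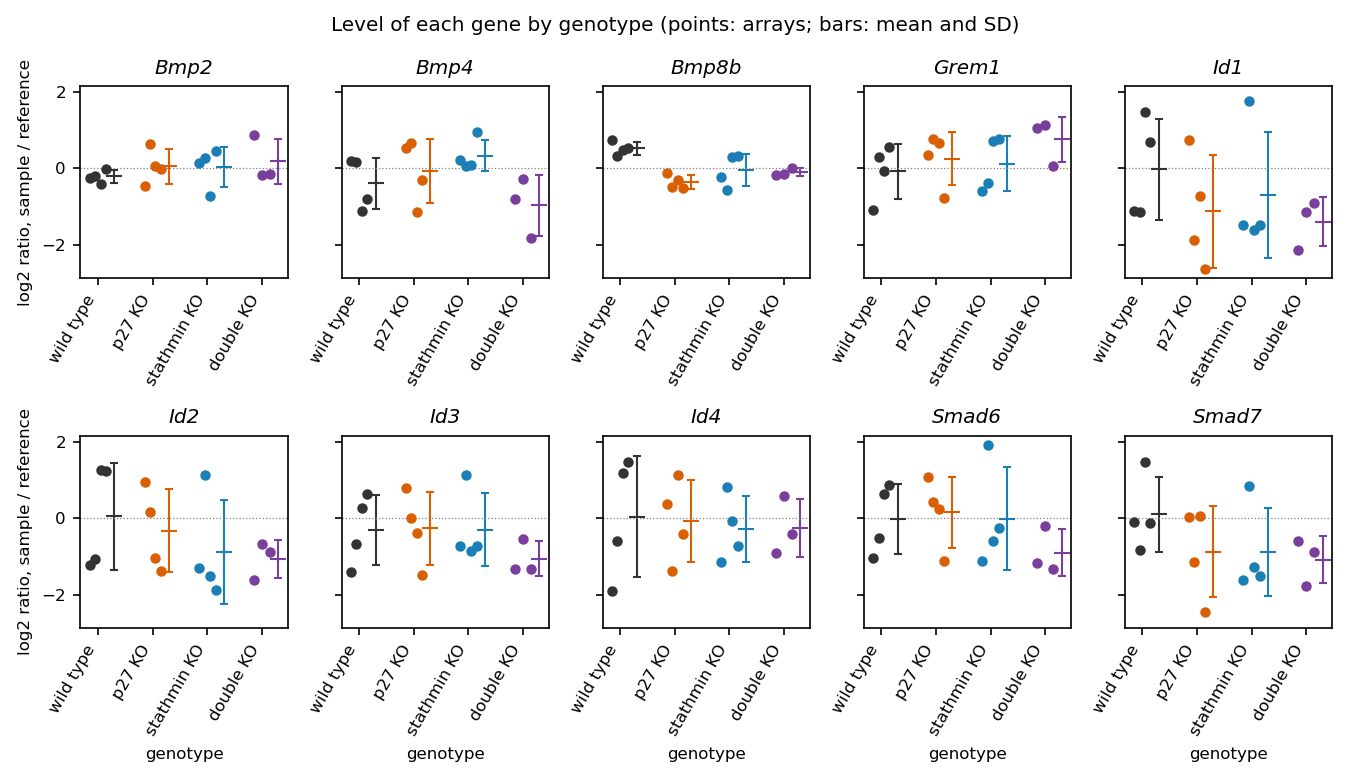
Log2 ratio of sample over pooled reference for each gene (panels) by genotype; points are arrays, and the bar beside them gives the mean and SD (n = 4, and n = 3 for double knock-out). Wild type stands apart in Bmp8b, and stathmin and double knock-out do not overlap in Bmp4; in the Id genes and inhibitory Smads every pair of genotypes overlaps.

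Over all comparisons, 0 of the 13 member probes passed an adjusted p under 0.05 in limma. The background was 0% of tested probes called in p27 knock-out against wild type (1616 at an unadjusted p under 0.05), 0.00723% in stathmin knock-out, 0.00361% in double knock-out, 0.00361% in double against p27 knock-out, 0% in double against stathmin knock-out (983 unadjusted) and 0% in the interaction (2019 unadjusted). At an unadjusted p under 0.05 the members gave 1 of 13, Bmp8b, in each of the 3 comparisons with wild type in the same order, where the background was 5.84%, 4.84% and 2.26% of probes. They gave 0 of 13 in double against p27 knock-out (background 2.89%), 1 in double against stathmin knock-out (Bmp4; 3.55%) and 2 in the interaction (Bmp4 and Bmp8b; 7.3%).

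Other than Bmp8b, the member probes differed from wild type by -1.10 to 0.33 in p27 knock-out, -0.99 to 0.72 in stathmin knock-out and -1.37 to 0.83 in double knock-out. Of the 13, 8, 9 and 11 were below wild type in these groups, with median differences of -0.25, -0.32 and -0.62, beside medians of -0.0021, 0.0023 and -0.0064 over all tested probes. In double against p27 knock-out 0 of 13 member probes lay apart from the other group, where 1.59% of tested probes lay below it with no overlap. The dimmer Id2 probe, with values dropped as outliers, could not be assessed there. In double knock-out the 2 above wild type were Bmp2 and Grem1. The median SE of a member was 0.65, 0.65 and 0.70, against 0.22, 0.22 and 0.24 over all tested probes, so a doubling lies within the error for most of them.

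**Figure D4:**
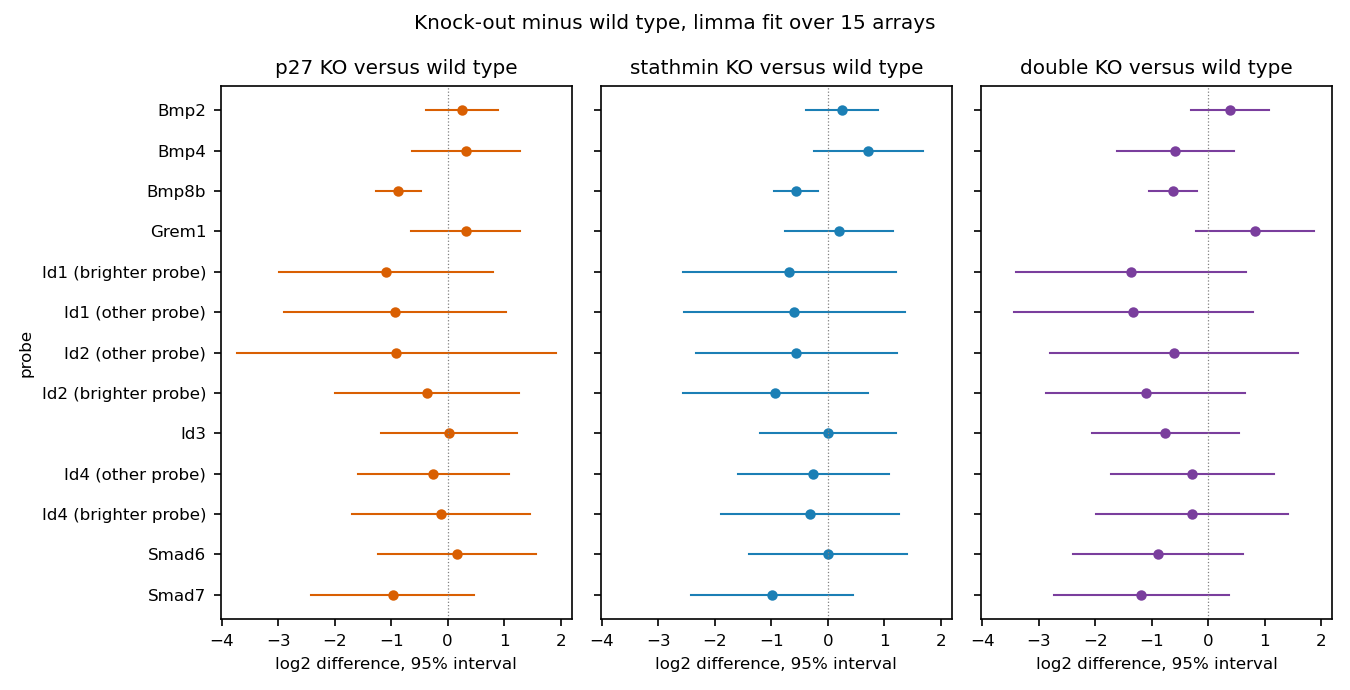
Log2 difference of each knock-out group from wild type (points) with its 95% interval (lines) for the 13 probes, from the limma fit over 15 arrays; each panel is 1 comparison. Only the Bmp8b intervals, at -0.87, -0.57 and -0.62, lie wholly to one side of 0. None of these differences passed an adjusted p under 0.05, and all rest on the wild type arrays through which the probe entered the tested set. The widest intervals belong to Id2 and Id1 probes.

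The Id genes and inhibitory Smads tended to be high on the same arrays, which came from 3 of the 4 genotypes; no double knock-out array was among them. Id2, Id3 and Smad6 had as their 4 highest arrays the same 4 that Id1 placed above the reference, and Id4 and Smad7 had 3 of those 4. Over all genes, 2.12% had exactly these 4 as their highest (396 of 18659) and 9.01% at least 3 of them. Bmp2 and Bmp4 had 1 of the 4, Bmp8b 2 and Grem1 0. Because the set was taken from Id1, its own place in it is no result.

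Id3 and Smad6, which showed no gap, followed each other across all 15 arrays (r = 0.97, permutation p = 1e-05; rho = 0.95, permutation p = 1e-05; the smallest p that 100000 permutations can give). Adjusted over the 45 pairs of members both p-values were 0.00045, and r was 0.95 without the 2 arrays farthest from the median of Id3. On the 11 arrays with Id1 below the reference r was still 0.90 (permutation p adjusted over the 45 pairs = 0.00675), and after removing genotype and slide means it was 0.97. The values of a pair come from the same hybridisations and share an array's normalization; with the sample channel alone r was 0.96.

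For pairs with Id1 the arrays form separate sets, so the relation was read within the larger one. Over its 11 arrays Id1 had r = 0.61 with Smad7, 0.32 with Id4, 0.28 with Id3, 0.23 with Smad6 and 0.16 with Id2, and none of them passed (permutation p adjusted over the 45 pairs, 0.762 to 0.894). Id2 had r = 0.58 with Id3 and 0.51 with Smad6 there (adjusted permutation p = 0.762 in both). Among the 15 pairs of Id genes and inhibitory Smads the median r was 0.27 within the 11 arrays, and Id3 with Smad6 was the 1 pair that passed.

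Over all 15 arrays, 12 of the 45 pairs passed at an adjusted permutation p under 0.05, and all 12 were among the 15 pairs of Id genes and inhibitory Smads. Without wild type 3 the count was 7, with wild type 3 and 4 averaged as 1 culture also 7, and on the 11 arrays 1. Settings other than leaving out 1 array gave 1 to 15, so the count depends on the arrays and values used. The 11 arrays were picked by their Id1 value, which narrows its range and leaves fewer arrays. A pair that did not pass there is therefore not shown to lack a relation. None of the 24 pairs that link these genes to Bmp2, Bmp4, Bmp8b or Grem1 passed (r from -0.44 to 0.28), nor did any of the 6 pairs among those 4 genes (-0.44 to 0.24). With 15 arrays a weak relation could be missed.

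**Figure D5:**
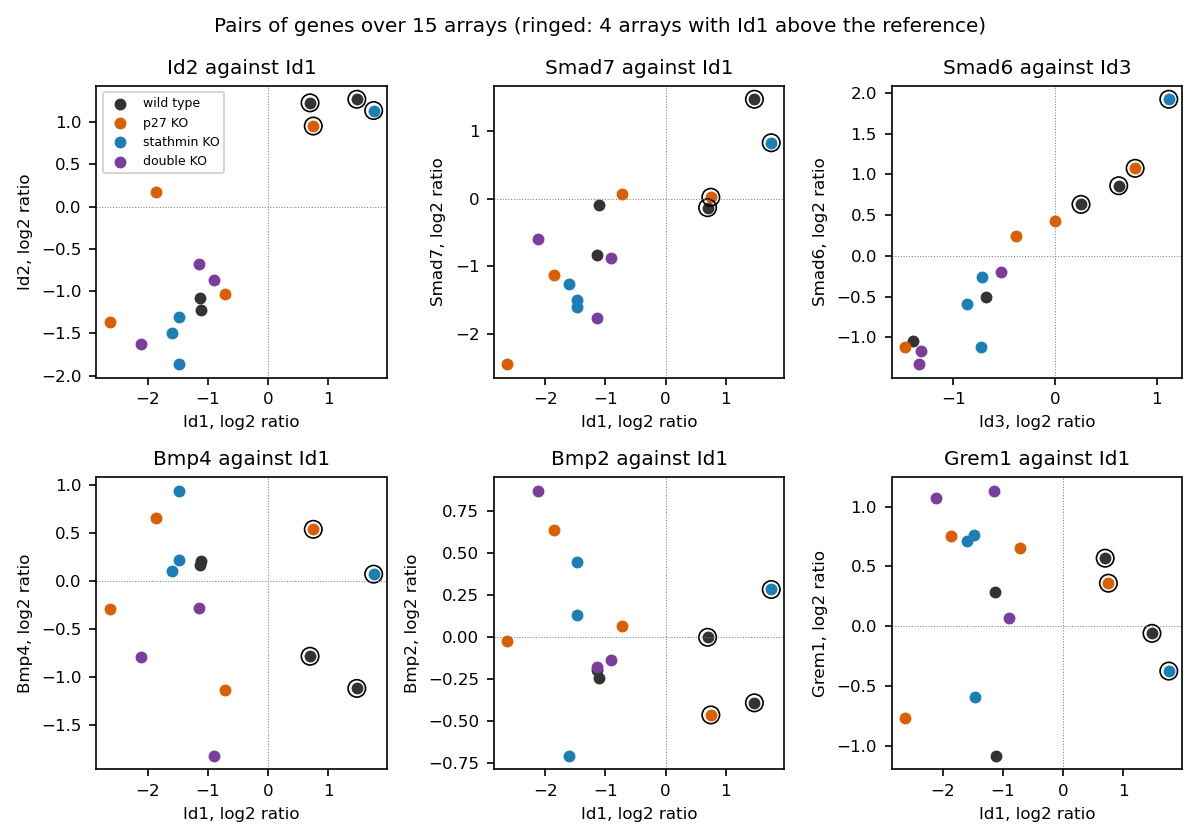
Log2 ratios of 6 pairs of genes over the 15 arrays, coloured by genotype, with rings on the 4 arrays where Id1 is above the reference. Id2 against Id1 forms separate sets, Smad6 against Id3 follows a line throughout, and Bmp4, Bmp2 and Grem1 show no such relation with Id1.

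Other properties of the 4 arrays were read beside this pattern. Their macrophage markers summed to 154185, 208405, 300910 and 195858 units (wild type 3 and 4, p27 knock-out 1, stathmin knock-out 2), inside the range of the other 11 arrays, and the sum had r = -0.03 with Id1 over arrays. Of 7 cartilage markers, 5 or 6 were well above background on each array. Their summed signal had r = 0.36 with Id1, and their median log2 ratio r = 0.60. That median was -0.07 and -0.04 on wild type 3 and 4. The markers summed to 180433, 306395, 393849 and 462606 units on the 4 arrays and to 104759 to 346890 on the other 11. Sox9 is in that list and among the BMP target genes. The part of cartilage-type cells in the Id pattern was not tested. Ddx3y was at -7.22 on stathmin knock-out 2 and 0.67 to 0.83 on the other 3, so the 4 arrays were not alike in this gene.

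The rest of the BMP and TGF-beta pathway was read from lists of 89 genes, of which 88 were on the array and 77 were tested. In each of the 6 comparisons 0 of 77 passed in either direction. At an unadjusted p under 0.05 there were 4, 1 and 3 in the comparisons of p27, stathmin and double knock-out with wild type, 1 in double against p27 and 6 in double against stathmin knock-out, and 3 in the interaction, beside 5.84%, 4.84%, 2.26%, 2.89%, 3.55% and 7.3% of all tested probes in these 6 comparisons. The lists hold 13 BMP target genes, 12 of them below wild type in double knock-out with 0 called, where 58 of all 77 genes were below.

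The smallest p against wild type belonged to Runx2, the osteoblast transcription factor, in p27 knock-out (-0.66, SE 0.26) and again in double knock-out (-0.74, SE 0.28). Fstl1, a secreted BMP-binding protein, differed by 0.64 (SE 0.29) and Smad2, a TGF-beta receptor Smad, by -0.43 (SE 0.20) in p27 knock-out. In stathmin knock-out the leading genes were Gata3, a transcription factor (-0.80, SE 0.34), Tcf4, an E protein that Id proteins bind (0.39, SE 0.19), and Smad2 (-0.37, SE 0.20). In double knock-out Smad9 (-0.46, SE 0.19) and the homeobox gene Msx2 (-1.31, SE 0.56) followed Runx2. The adjusted p of these genes in limma was 0.797, 0.916 and 1 in the 3 comparisons.

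Msx2 and Msx1, homeobox genes that BMPs induce, and Hey1, a Notch and BMP target, led double against stathmin knock-out: -1.87 (SE 0.56), -1.32 (SE 0.50) and -1.99 (SE 0.80), each with adjusted p = 1 in limma. Bmp4 also lay lower in that comparison, as did 55 of the 77 pathway genes. A link between Bmp4 and Msx2, Msx1 or Hey1 was not tested. In double against p27 knock-out the leading genes were Neo1, a receptor for repulsive guidance molecules (-0.53, SE 0.21), Smad9 (-0.40, SE 0.19) and the matrix gene Tgfbi (-0.97, SE 0.52), with adjusted p = 1. The interaction was led by Fstl1 (-1.002, SE 0.40), Tcf4 (-0.69, SE 0.29) and Msx1 (-1.55, SE 0.69), with adjusted p = 0.682.

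Across arrays the target genes had a higher Pearson r with Id1 than the ligands did, as a description. Id1 splits the arrays into 2 sets, and r within the larger set was not taken for these genes. The median r with Id1 was 0.74 over the 13 target genes, 9 of them above 0.5, and 0.03 over 9 ligands, 0.10 over 12 receptors, 0.19 over 13 extracellular antagonists, 0.39 over 8 intracellular inhibitors, 0.39 over 12 genes of the TGF-beta branch and -0.29 over 7 Id partners. Over all tested genes it was -0.02, with 2034 of 18659 above 0.5. The list of Id partners includes Tcf7l1 (r = -0.20), which is not a helix-loop-helix gene. The 4 arrays high in Id1 were also the 4 highest for 9 of the 77 genes, beside 2.12% over all genes (396 of 18659). The set was taken from Id1 and the lists were chosen with earlier results known, so this count supports nothing by itself. Those named here were chosen after their values were seen: the target genes Dlx2, Sox9 and Gata2, the receptor Smad Smad9 (also a target), the antagonist Nog, the inhibitors Skil and Tgif1, and Tgfbr1 of the TGF-beta branch. Dlx2 read 0.78 to 1.97 on the 4 arrays and -3.19 to 0.0046 on the other 11. Gata2 had a missing value among those 11, so its place rests on the arrays measured.

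Outside the pathway, the genes most like Id1 over the 15 arrays were Klhl21 (r = 0.95), Hip1r (0.94), 5430417L22Rik (0.92), Hbegf (0.92) and Srxn1 (0.92), of 18649 genes compared. For Bmp4 they were Emc9 (0.92), Iqsec1 (0.92), Slc25a35 (0.88), Ankrd24 (0.88) and Myo18a (0.88). Grem1 had less close matches: Wipi1 (0.82), Bsdc1 (0.78), Mon2 (0.78), Gnrh1 (0.78) and Col24a1 (0.78). These are the highest of many values and carry no test.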

How the data were processed

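RNA from 15 fibroblast cultures was measured on 2-colour Agilent arrays. The authors scanned the arrays with Feature Extraction 9.1.3.1 and left background subtraction off, per the file headers. The deposited intensities are spot signals and local backgrounds as scanned. The scanner software's ratio, also deposited, is the log10 of red over green. The authors' deposited value table holds log2 ratios of sample over reference, as read from its values (r 0.82 to 0.94 with the scanner ratio, slope 0.96 to 1.00 on spots above 1000 units); its column medians were 0 to 0.049, its means 0, and its normalization is not given in the sources used here.

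The re-analysis used R 4.3.3 and limma 3.58.1: normexp background correction (offset 50), then loess within each array. Spots marked as outliers by the scanner were dropped, and repeat spots of a probe averaged. The share of spots well above background in the sample channel was 59.3 to 78.9% per array; the number of arrays limits the precision. All 15 arrays entered 1 fit of genotype means, with 11 residual degrees of freedom and two-sided tests, with Benjamini-Hochberg adjustment over tested probes and a threshold of 0.05. Every p-value treats the arrays of a genotype as separate cultures, as the labels have it. Pairs of genes were tested two-sided by 100000 permutations. The fit and the permutation test were tested on simulated data. For non-members and pairs, the brightest tested probe stood for a gene. Members got a difference, SE and adjusted p where the unadjusted p was under 0.05 or groups did not overlap, and Bmp8b and Id3 throughout; of the pathway lists, the 3 smallest p per comparison were named. Members, lists and rules were chosen with earlier results of these data known. Alternatives covered background, normalization, filters, channels, blocks, weights and left-out arrays. Gene positions and promoters are RefSeq's (GRCm38.p6). One gene of the pathway lists is counted but not reported here by name.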

Additional observations from a re-analysis of the deposited data

Results flagged for a closer look

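Within groups of 4 arrays, the most distant array was compared with the other 3 for each of 13 member probes, 38 groups in all; 5 had 1 array far from the rest, where about 1 in 20 would by chance. Of these, 4 were stathmin knock-out 2: both Id1 probes (1.76, the others -1.60 to -1.47, and 1.84, the others -1.60 to -1.35), Id3 (1.12, the others -0.86 to -0.72) and Smad7 (0.83, the others -1.60 to -1.26). The fifth was Bmp4 on stathmin knock-out 4 (0.94, the others 0.07 to 0.22). The Id probes share arrays and follow each other, so these are not separate events. For no member probe did the interaction pass an adjusted p under 0.05 in limma.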

How the results depend on the processing

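None of the 13 member probes, where tested, passed an adjusted p under 0.05 in limma in any comparison under any alternative run; the lowest was 0.121 (Bmp8b, double knock-out against wild type, array weights). Of 453 values of Bmp8b, Id3 and Bmp4 under alternatives, 429 kept their direction and 24 turned. Id3 in p27 knock-out turned to -0.022 with quantile normalization, -0.023 with the authors' deposited table, -0.037 with the scanner's ratio, -0.060 without the 4 arrays low in Ddx3y and -0.50 with array weights, and ranged from -0.34 to 0.43 leaving out 1 array. Id3 in stathmin knock-out turned to 0.24 with wild type 3 and 4 averaged and ranged from -0.47 to 0.31. Bmp8b, double against stathmin knock-out, ranged from -0.23 to 0.065, and the Id3 interaction was 0.0035 with array weights. The reference channel alone, which should carry no difference, gave Id3 0.047 in stathmin and 0.063 in double knock-out against wild type, and 0.0043 and 0.016 in double against p27 and stathmin knock-out; Bmp8b was -0.057 in double against p27 knock-out and -0.057 in the interaction.

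Counts of all probes called were small and moved. Stathmin knock-out against wild type (2) gave 13 with array weights, 6 without the arrays low in Ddx3y, 1 with the sample channel, with 1 probe per gene or with only the compared genotypes, and 0 with the reference channel (1 to 3 leaving out 1 array). Double knock-out against wild type (1) gave 9 with array weights, 0 with 1 probe per gene, and 2 with quantile normalization, the deposited table, the scanner's ratio, the replicate block or the slide block (1 to 2). Double against p27 knock-out (1) gave 2 under those last 5 settings, array weights or an intensity trend, and 0 with 1 probe per gene or only the compared genotypes (1 to 2). Double against stathmin knock-out (0) gave 1 with the reference channel, array weights or without the arrays low in Ddx3y (0 to 1), and the interaction (0) gave 1 without those arrays (0 to 1). Arrays with the same replicate number had residual correlations of -0.26 to 0.42, median 0.17, 12 of 21 over 0.1 (other pairs: median -0.046, 16 of 63), and 5 of 15 arrays were closest to their own number. Not every pair was over 0.1, and by that rule the numbers were not taken to pair the arrays in the main fit. A batch shared by number could fail this rule, so the rule does not show that there was none. The replicate block left all 13 member probes short of the threshold.

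Of 45 pairs, 12 passed; 7 without the 2 farthest arrays, 7 with wild type 3 and 4 averaged, 1 on the 11 arrays with Id1 below the reference, and 7 (without wild type 3) to 14 leaving out 1 array; these last 3 (other than leaving out wild type 4) and the Ddx3y setting were chosen after seeing the data. Settings other than leaving out 1 array gave 1 to 15 pairs. After removing genotype and slide means, the 15 pairs of Id genes and inhibitory Smads had r of 0.65 to 0.97 (0.48 to 0.97 before). The interaction needs all 4 genotypes, so fitting only those compared was not run for it. With a filter for signal on all arrays Bmp8b was not tested. Dim signal limits Bmp8b and Bmp2.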
